A study of Homo sapiens with 2 samples.

Results

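The genes described here are 10 that govern the passage of a cell out of G1: the D cyclins CCND1, CCND2 and CCND3, the E cyclins CCNE1 and CCNE2, the kinases CDK2, CDK4 and CDK6, the inhibitor CDKN1B (p27) and the transcription factor E2F1. They were taken by symbol from GENCODE release 44, matched by Ensembl identifier to both count tables, and all 10 were found among the 58735 genes listed. The RNA came from MCF10a-Snail-ER cells, a non-tumorigenic human mammary epithelial line with a stable fusion of the Snail repressor to the estrogen receptor, treated with 100 nM tamoxifen for 1 day to begin an epithelial-to-mesenchymal transition. Both groups share that fusion, that treatment and the culture medium, which held 5% horse serum, 20 ng/ml EGF, 10 µg/ml insulin, 0.5 µg/ml hydrocortisone and 100 ng/ml cholera toxin. One group was 1 Nanopore direct RNA library, in which native polyadenylated RNA is read from its 3′ end without amplification, and the other was 1 Illumina library made with a TruSeq stranded mRNA kit, from fragmented and amplified material. With 1 library per platform and no untreated library, nothing here measures the effect of tamoxifen or Snail, and every interval and test covers counting error in these 2 libraries only.

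In the textbook account of G1, mitogens such as EGF raise the D cyclins, which pair with CDK4 or CDK6 and start to phosphorylate the retinoblastoma protein RB1. Phosphorylated RB1 releases E2F factors, which switch on the E cyclins and the genes of DNA replication, and cyclin E with CDK2 completes the step into S phase. The p27 protein, made from CDKN1B, binds and restrains cyclin E-CDK2 and is itself removed by the SKP2 ubiquitin ligase.

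Total counts were 403235 (Nanopore) and 191741714 (Illumina), so a single Nanopore count equalled 2.48 counts per 1000000 (CPM) and a single Illumina count 0.00522 CPM. The limit that a count of 0 allows, 3 counts, was 7.44 CPM and 0.0156 CPM. SNAI1, part of the fusion, had 286 Nanopore and 164973 Illumina counts, and ESR1, the other part, had 389 and 27469; the tables do not separate fusion transcripts from those of the cell's own genes. Of 10 basal and epithelial markers all were detected in both libraries, at 3 to 680 Nanopore counts, with CDH1 and EPCAM lowest. Of 6 mesenchymal markers 5 were detected by Nanopore, at up to 700 counts for VIM, and SNAI2 had 0 there against 1572 by Illumina. Those 1572 counts would match 3.31 Nanopore counts, so a difference in SNAI2 was not detectable at this depth. Of 12 markers of blood, endothelial, fibroblast, fat and red cells, 9 had 0 Nanopore counts and 4 reached 1 CPM by Illumina: CD68, PECAM1, COL1A1 and DCN, chosen for naming after their values were seen.

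The members within a family are related in sequence, so the first question was whether a read could belong to more than 1 of them. No 50-base word of any of the 10 genes occurred in the transcripts of another of the 10. The coding sequences of CCND1 and CCND3 were identical at 61.8% of aligned positions, those of CCND1 and CCND2 at 67.0%, those of CCND2 and CCND3 at 67.0%, those of CDK4 and CDK6 at 62.8% and those of CCNE1 and CCNE2 at 58.4%. The longest identical run in these 5 pairs was 23 bases, between CCND1 and CCND2. The 4 stretches below are shown because they hold the longest run shared by CCND1 and CCND3 and the longest shared by CDK4 and CDK6. Each is 60 coding bases of the GENCODE MANE Select transcript (the representative transcript of the gene), written 5′ to 3′ on the strand of the gene, with the shared run in capitals.
CCND1, exon 2, hg38 chr11:69643050-69643109, plus strand: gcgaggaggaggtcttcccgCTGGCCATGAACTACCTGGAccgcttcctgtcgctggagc
CCND3, exon 2, hg38 chr6:41940507-41940566, minus strand: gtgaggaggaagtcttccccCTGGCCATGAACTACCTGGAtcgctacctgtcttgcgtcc
CDK4, exon 4, hg38 chr12:57750977-57751036, minus strand: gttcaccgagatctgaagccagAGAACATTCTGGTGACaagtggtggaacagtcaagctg
CDK6, exon 4, hg38 chr7:92725680-92725739, minus strand: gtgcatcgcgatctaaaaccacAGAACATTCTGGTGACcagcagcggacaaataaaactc
The shared run was 20 bases in the cyclin pair and 16 bases in the kinase pair. The sequence that the 10 genes do share with others lies mainly with neighbours on the opposite strand: 35.7% of the 50-base words of CDK4 occur in TSPAN31, 35.2% of those of CCNE2 in INTS8 and 8.46% of those of CCND1 in LTO1. CCND2 shares 11.9% of its words with the same-strand gene ENSG00000285901.

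All 10 genes were detected in both libraries, with 168 Nanopore counts and 153576 Illumina counts in all. By Nanopore they ranged from 2 to 43 counts, and by Illumina from 3313 to 36579. An exact conditional binomial test of the 2 counts of each gene, adjusted by the Benjamini-Hochberg method over the 12414 genes averaging 5 CPM or more, was combined with a threshold of 2-fold for the ratio of CPM + 1 values. CCND1, CCND2, CDK2, CDK6 and E2F1 were called higher by Illumina, 5 of 10, where 21.7% of all tested genes were. CCNE2 was called higher by Nanopore, 1 of 10, where 17.7% of all tested genes were. Tested protein-coding genes were called higher by Nanopore less often, 4.36% of those that overlap no gene and 10.7% of those that overlap one. Higher by Illumina were 26.1% and 23.9% of them. CCND3, CCNE1, CDK4 and CDKN1B were not called. The median log2 ratio of the 10 was −1.49, against −0.42 for all tested genes.

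**Figure D1:**
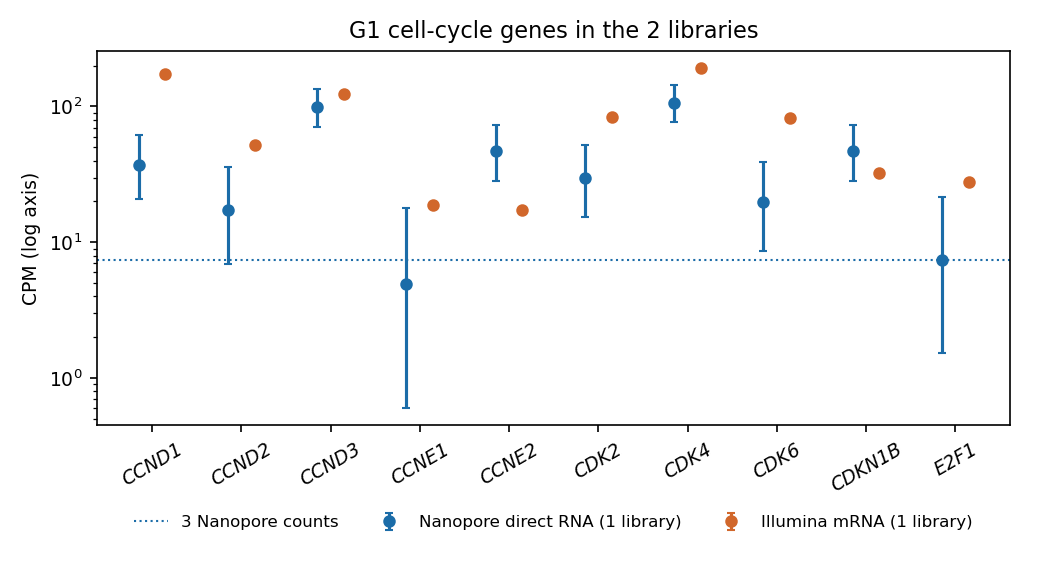
Levels of the 10 genes in CPM (log axis) in the Nanopore library (blue) and the Illumina library (orange), with 95% exact Poisson intervals, which for Illumina are narrower than the points; the dotted line marks 3 Nanopore counts. CCNE2 and CDKN1B are the only members whose Nanopore point lies above the Illumina point, and CCNE1 and E2F1 lie at or below the dotted line.

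The D cyclins carry the mitogen signal into the cell cycle. CCND1 (ENSG00000110092, chromosome 11, 69641156 to 69654474, plus strand, hg38) had 15 Nanopore counts, or 37.2 CPM (95% exact Poisson interval 20.8 to 61.4), and 33140 Illumina counts, or 173 CPM. At its Illumina share the Nanopore depth would have given 69.7 counts. CCND1 was thus 4.65-fold higher by Illumina (95% exact interval 2.82 to 8.30), with a log2 ratio of −2.19, the lowest of the 10, and an exact binomial adjusted p of 4.91e-14. It was the only member past a 4-fold call on CPM + 1 values, which 7.31% of all tested genes passed in that direction and 12.9% in the other. CDK6 was 4.12-fold higher by Illumina without a pseudocount and missed that call, at a log2 ratio of −1.99, only through the pseudocount.

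CCND2 (ENSG00000118971, chromosome 12, 4269771 to 4305353, plus strand), the D cyclin with the longest transcript, had 7 Nanopore counts (17.4 CPM, 6.98 to 35.8) and 10022 Illumina counts (52.3 CPM). It was 3.01-fold higher by Illumina (1.46 to 7.49, exact binomial adjusted p = 0.00242). CCND3 (ENSG00000112576, chromosome 6, 41934934 to 42050357, minus strand) had 40 Nanopore counts (99.2 CPM, 70.9 to 135) and 23736 Illumina counts (124 CPM). Its Nanopore to Illumina ratio was 0.801 (0.572 to 1.09, exact binomial adjusted p = 0.274), so a difference was not detectable at this depth. On the undivided CPM scale CCND3 was the D cyclin whose 2 values lay closest, whereas by union and mean transcript length it was CCND2.

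The E cyclins activate CDK2 at the end of G1. CCNE1 (ENSG00000105173, chromosome 19, 29811991 to 29824312, plus strand) had 2 Nanopore counts (4.96 CPM, 0.601 to 17.9) and 3628 Illumina counts (18.9 CPM). Its ratio of 0.262 had an interval of 0.0317 to 0.948, and it missed the call with an exact binomial adjusted p of 0.0732. CCNE2 (ENSG00000175305, chromosome 8, 94879770 to 94896678, minus strand) had 19 Nanopore counts (47.1 CPM, 28.4 to 73.6) and 3313 Illumina counts (17.3 CPM), where 6.97 Nanopore counts would match the Illumina share. It was 2.73-fold higher by Nanopore (1.64 to 4.27, log2 ratio 1.40, exact binomial adjusted p = 0.000883). The 2 E cyclins had nearly the same Illumina CPM and lay far apart by Nanopore. That distance rests on 2 counts for CCNE1, and CCNE2 shares exonic bases with INTS8, as described below.

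Of the kinases, CDK4 and CDK6 bind the D cyclins and CDK2 binds cyclin E. CDK4 (ENSG00000135446, chromosome 12, 57747727 to 57756013, minus strand) had the highest count of the members in both libraries, at 43 Nanopore counts (107 CPM, 77.2 to 144) and 36579 Illumina counts (191 CPM). Its Nanopore count could not be separated from the 40 of CCND3. CDK4 was 1.79-fold higher by Illumina (1.33 to 2.47, exact binomial adjusted p = 0.000150), which is short of the 2-fold call. CDK6 (ENSG00000105810, chromosome 7, 92604921 to 92836573, minus strand) had 8 Nanopore counts (19.8 CPM, 8.57 to 39.1) and 15654 Illumina counts (81.6 CPM), a 4.12-fold difference (2.09 to 9.53, exact binomial adjusted p = 2.46e-06). CDK2 (ENSG00000123374, chromosome 12, 55966781 to 55972789, plus strand) had 12 Nanopore counts (29.8 CPM, 15.4 to 52.0) and 15914 Illumina counts (83.0 CPM), a 2.79-fold difference (1.60 to 5.40, exact binomial adjusted p = 0.000153). All 3 kinases were lower by Nanopore on the CPM scale.

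CDKN1B (ENSG00000111276, chromosome 12, 12685498 to 12722369, plus strand), which encodes the inhibitor p27, had 19 Nanopore counts (47.1 CPM, 28.4 to 73.6) and 6221 Illumina counts (32.4 CPM). Its ratio of 1.45 (0.874 to 2.27, exact binomial adjusted p = 0.235) did not pass the test. E2F1 (ENSG00000101412, chromosome 20, 33675477 to 33686385, minus strand), the activating E2F that RB1 holds back, had 3 Nanopore counts (7.44 CPM, 1.53 to 21.7) and 5369 Illumina counts (28.0 CPM). Its ratio was 0.266 (0.0548 to 0.777, exact binomial adjusted p = 0.0193), and the call rests on those 3 counts.

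A Nanopore read stands for 1 RNA strand, whereas a long RNA gives more Illumina fragments than a short one, so levels of different genes were compared by Nanopore counts and by Illumina counts per length (TPM, transcripts per 1000000). The members differ widely in length. The MANE Select transcript is 1865 bases for CDK4, 1954 for CCNE1, 2026 for CCND3, 2240 for CDK2, 2411 for CDKN1B, 2674 for CCNE2, 2690 for E2F1, 4238 for CCND1, 6493 for CCND2 and 11663 for CDK6. Most of that spread is 3′ untranslated sequence, which makes up 87.6% of the CDK6 transcript, 82.3% of CCND2 and 75.3% of CCND1, while the coding parts span only 597 bases (CDKN1B) to 1314 bases (E2F1). Across the 10 genes Spearman's correlation of the log2 ratio with MANE Select length was −0.49, a description over genes of the same 2 libraries.

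Tested protein-coding genes gave the background for each length. Their median log2 ratio was −0.0087 for 2622 genes under 2000 bases, −0.49 for 2082 genes of 2000 to 3000 bases, −0.76 for 2955 genes of 3000 to 5000 bases and −0.99 for 2839 longer genes. CDK6 at −1.99 and CCND1 at −2.19 lay below the lower quartiles of their length groups, −1.62 and −1.40, and CCND2 at −1.54 lay inside its group. CDK2 (−1.45), E2F1 (−1.78) and CCNE1 (−1.74) lay below the lower quartiles of theirs (−1.13 for 2000 to 3000 bases and −0.62 under 2000 bases), as did CDK4 (−0.83). CCNE2 (1.40) and CDKN1B (0.52) lay above the upper quartile of 0.17. CCND3, at −0.32, lay between the quartiles.

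**Figure D2:**
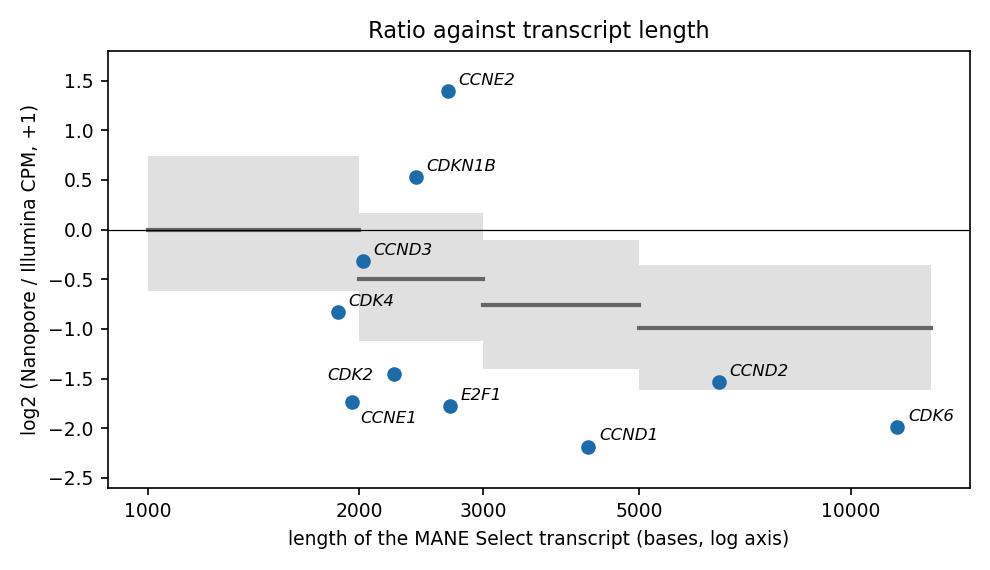
Log2 ratio of Nanopore to Illumina CPM (pseudocount of 1 CPM) of each member against the length of its MANE Select transcript (log axis). Grey boxes and lines are the quartiles and medians of tested protein-coding genes in 4 length groups, whose outermost edges are drawn at 1000 and 13000 bases; CCNE2 and CDKN1B lie above their box, and CCND2 and CCND3 lie within theirs.

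Dividing Illumina counts by length changed several comparisons, and the choice of length mattered. By the union of all annotated exons, the length set as the main choice, CDK4 was at 167 TPM, CCND1 at 98.3, CCND3 at 58.2, CDK2 at 57.8, E2F1 at 28.2, CCNE1 at 20.8, CDK6 at 18.1, CCND2 at 17.7, CCNE2 at 10.6 and CDKN1B at 9.49. By MANE Select length, an alternative chosen after the data were seen, CDK4 was at 161 TPM, CCND3 at 96.3, CCND1 at 64.2, CDK2 at 58.4, CDKN1B at 21.2, E2F1 at 16.4, CCNE1 at 15.3, CCND2 at 12.7, CDK6 at 11.0 and CCNE2 at 10.2. CDK4 led and CCNE2 was last or next to last in both. CDKN1B moved from 10th to 5th, since its annotated exons span 9255 bases and its MANE Select transcript 2411.

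The Nanopore order was CDK4 (43 counts), CCND3 (40), CCNE2 and CDKN1B (19 each), CCND1 (15), CDK2 (12), CDK6 (8), CCND2 (7), E2F1 (3) and CCNE1 (2). Of the 9 neighbouring steps in this order, the step from CCND3 to CCNE2, 2.11-fold with a 95% exact interval of 1.19 to 3.85, was the only step whose interval lay above 1. CDK4 and CCND3 differed 1.07-fold (0.682 to 1.70), and no other neighbours could be ordered at this depth. The intervals cover counting error only. CDK4, CCNE2, CCND1 and CDK2 share exonic bases with opposite-strand genes of nearly equal Nanopore count, as described below. Spearman's correlation of the Nanopore with the Illumina order over the 10 genes was 0.28 by union length, 0.55 by MANE Select length and 0.52 for undivided CPM.

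**Figure D3:**
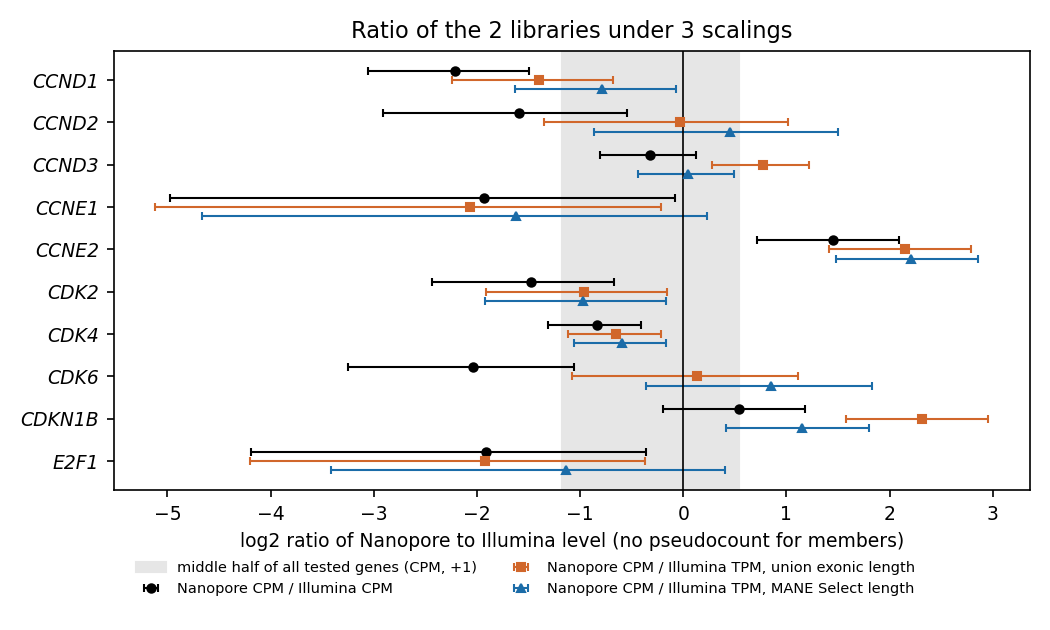
Log2 ratio of Nanopore CPM to the Illumina level of each member, for undivided Illumina CPM (black circles), TPM by union exonic length (orange squares) and TPM by MANE Select length (blue triangles), with 95% exact counting intervals and no pseudocount; the grey band is the interquartile range of all tested genes on the log2(CPM + 1) scale. CCNE2 stays to the right of 0 under all 3, and the intervals of CDK6 and CCND2 include 0 once length is divided out. The all-gene median itself lies above 0 on the TPM scales, at 0.40 by union and 0.50 by MANE Select length.

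Within the D cyclins, CCND3 led by Nanopore, and by Illumina CCND1 led per union and mean transcript length and CCND3 per MANE Select length. CCND3 held 40 of the 62 Nanopore counts of the D cyclins, 64.5% (95% Clopper-Pearson interval 51.3 to 76.3%), CCND1 24.2% (14.2 to 36.7%) and CCND2 11.3% (4.66 to 21.9%). Per union length, Illumina gave CCND1 56.4%, CCND3 33.4% and CCND2 10.2%. Per MANE Select length it gave CCND3 55.6%, CCND1 37.1% and CCND2 7.32%. The Nanopore ratio of CCND3 to CCND1 was 2.67 (1.44 to 5.20), which lay above the Illumina ratios of 0.592 by union length and 0.802 by mean transcript length and included 1.50 by MANE Select length. CCND2 held the smallest share in each. CCND1 shares exonic bases with the opposite-strand gene LTO1, which had 15 Nanopore counts. The intervals do not cover reads counted for both CCND1 and LTO1, and whether any were was not tested.

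CDK4 held the largest share of the kinases by either platform. CDK4 and CDK2 share exonic bases with the opposite-strand genes TSPAN31 and PMEL, which had 43 and 13 Nanopore counts. The intervals do not cover reads counted for both genes of such a pair, and whether any were was not tested. It held 68.3% of the 63 Nanopore counts of the 3 kinases (55.3 to 79.4%), and 68.8% or 69.9% of the Illumina level by union or MANE Select length. CDK2 held 19.0% (10.2 to 30.9%) against 23.8% or 25.3%, and CDK6 12.7% (5.65 to 23.5%) against 7.44% or 4.78%. The MANE Select value of CDK6 was the only one of these 6 Illumina shares outside its Nanopore interval. CDK4 exceeded CDK6 by 5.38-fold in Nanopore counts (2.50 to 13.2) and by Illumina 9.24-fold per union length, 13.7-fold per mean transcript length and 14.6-fold per MANE Select length, of which the last 2 lay above the Nanopore interval.

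The E cyclins differed between these 2 libraries. CCNE2 held 19 of 21 Nanopore counts, 90.5% (69.6 to 98.8%), and 33.8% or 40.0% of the Illumina level by union or MANE Select length. The Nanopore ratio of CCNE2 to CCNE1 was 9.50 (2.29 to 84.1), against 0.511 or 0.667 by Illumina. CCNE1 had only 2 Nanopore counts. The last 100 bases of the CCNE2 transcript overlap exons of the opposite-strand gene INTS8, which had 20 Nanopore counts. The intervals do not cover reads counted for both CCNE2 and INTS8, and whether any were was not tested. CDKN1B to CDK2, the inhibitor to its kinase, was 1.58 by Nanopore (0.730 to 3.58) and 0.164 or 0.363 by Illumina, both below the Nanopore interval.

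**Figure D4:**
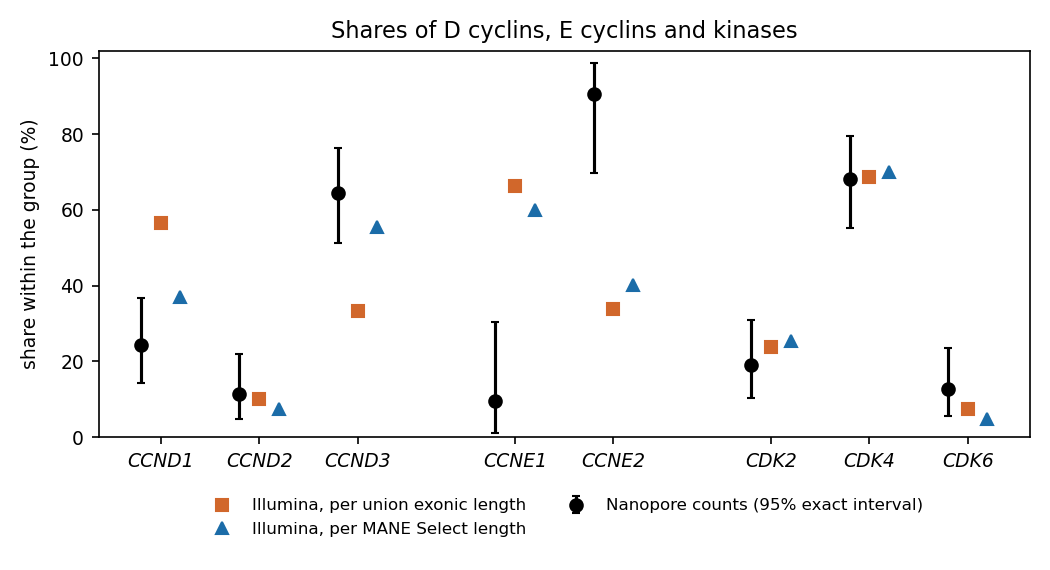
Share (%) of each gene within the D cyclins, the E cyclins and the kinases: Nanopore counts with 95% Clopper-Pearson intervals (black), Illumina counts per union exonic length (orange squares) and per MANE Select length (blue triangles). Illumina shares of CDK4 and CDK2 lie within the Nanopore intervals, and those of CCNE1 and CCNE2 lie outside them.

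The position of each gene was set beside these values, since 8 of the 10 gene bodies overlap another annotated gene and CCNE1 and E2F1 overlap none. In 4 cases the overlapping gene is protein-coding, lies on the opposite strand and shares exonic bases. CDK4 shares 1369 exonic bases with TSPAN31, a tetraspanin gene, including the last 100 bases of its MANE Select transcript. CDK4 had 43 Nanopore counts and TSPAN31 had 43, while by Illumina they had 36579 and 15330. CCND1 shares 497 exonic bases with LTO1, ending 64 bases short of its 3′ end. CCND1 had 15 Nanopore counts and LTO1 had 15, against 33140 and 4725 by Illumina. The 2 pairs were thus equal in 1 library and unequal in the other.

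CCNE2 shares 1629 exonic bases, 37.0% of its exons, with INTS8, a subunit gene of the Integrator complex, again including its last 100 bases. CCNE2 had 19 Nanopore counts and INTS8 had 20, against 3313 and 7606 by Illumina. CDK2 shares 89 exonic bases with PMEL, a pigment gene of melanocytes whose annotated body spans that of CDK2. CDK2 had 12 Nanopore counts and PMEL had 13, against 15914 and 96 by Illumina, so PMEL was 64.4-fold higher by Nanopore in CPM (log2 ratio 4.47). PMEL was at 0.501 CPM by Illumina and passed the filter only through its Nanopore count. In all 4 of these pairs the smaller Nanopore count was at least 90% of the larger, and in 0 of 4 was this so by Illumina.

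**Figure D5:**
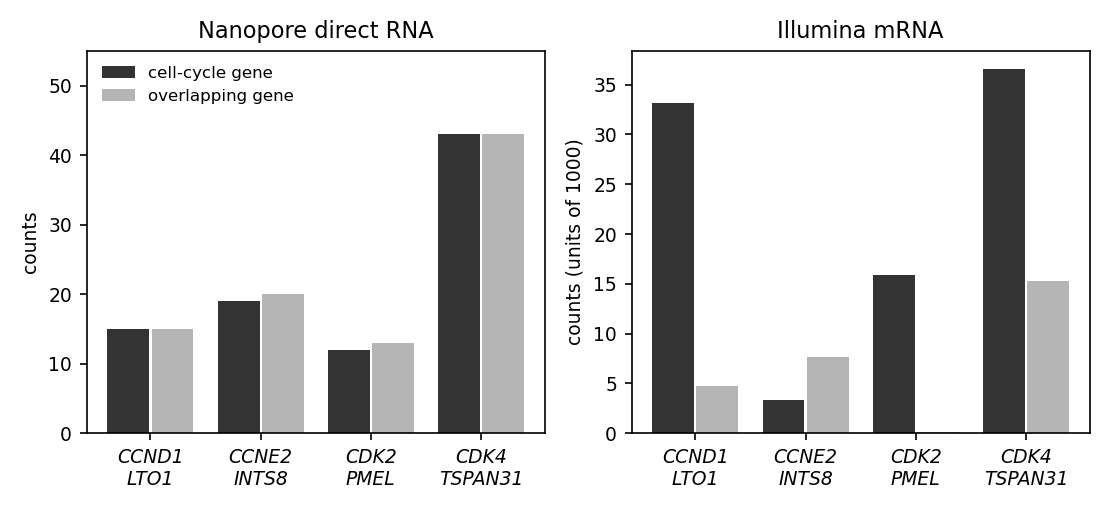
Counts of 4 members (dark bars) and of the protein-coding gene on the opposite strand that shares exonic bases with each (light bars), in the Nanopore library (left, counts) and the Illumina library (right, counts in units of 1000). The 2 bars of each pair are within 1 count of each other by Nanopore, and by Illumina they differ, with PMEL at 96 counts beside 15914 for CDK2.

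Across the genome, 991 opposite-strand pairs of protein-coding genes with shared exonic bases had at least 20 Nanopore counts together. In 20.2% of them the smaller Nanopore count was at least 90% of the larger, against 4.24% by Illumina in the same pairs. Among 1982 adjacent opposite-strand pairs that share no base the figure was 2.83% by Nanopore and 2.83% by Illumina. Counts were exactly equal in 86 of the overlapping pairs and 12 of the adjacent pairs by Nanopore. Which reads, if any, were counted for both genes of a pair was not tested, since the tables hold no reads and the counting options are not given in the sources used here.

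CCND2 shares 999 exonic bases at its 5′ part with the same-strand coding gene ENSG00000285901, which had 19 Nanopore counts beside 7 for CCND2 and 3416 Illumina counts beside 10022. That gene was called higher by Nanopore (log2 ratio 1.35, exact binomial adjusted p = 0.00125), the opposite direction to CCND2. CDK2 shares 565 exonic bases with the opposite-strand lncRNA ENSG00000258554, which had 5 and 1356 counts. The body of CCNE2 also overlaps NDUFAF6 (10 and 2383 counts) without shared exonic bases. GPR19, whose body overlaps CDKN1B without shared exons, had 0 Nanopore and 288 Illumina counts. The remaining overlapping genes in the tables had 0 or 1 Nanopore counts and 0 to 366 by Illumina, and 3 others are outside the tables. Of tested protein-coding genes that overlap none, 4.36% were called higher by Nanopore and 26.1% higher by Illumina, against 10.7% and 23.9% of those that overlap a gene.

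Other genes of the pathway were taken as 4 lists. Of 12 pocket proteins and E2F partners, 10 could be tested, 1 was higher by Nanopore, 1 higher by Illumina and the median log2 ratio was −0.74. Of all tested genes 17.7% were higher by Nanopore and 21.7% by Illumina, with a median of −0.42, so neither count exceeded that share. Tested protein-coding genes were higher by Nanopore less often, 4.36% of those that overlap no gene and 10.7% of those that overlap one. RB1, the pocket protein that cyclin D kinases phosphorylate, had 17 Nanopore and 12772 Illumina counts (ratio 0.633, 0.369 to 1.01). The highest ratio was that of E2F5, an E2F that works with the other pocket proteins, at 52 and 3101 counts (7.97-fold higher by Nanopore, 5.94 to 10.5), and its body overlaps 2 genes. The lowest was TFDP2, a dimer partner of E2F factors, at 4 and 9704 counts (5.10-fold higher by Illumina). E2F2 had 0 Nanopore counts, where its 1691 Illumina counts would match 3.56, so a difference was not detectable at this depth.

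Of 7 other genes with a CDKN symbol, 4 could be tested, with 1 higher by Nanopore, 0 higher by Illumina and a median of −0.048, beside 17.7%, 21.7% and −0.42 for all tested genes. CDKN2A and CDKN2B, the INK4 inhibitors of CDK4 and CDK6, had 0 counts in both libraries, which allows up to 0.0156 CPM by Illumina, and as background that locus is known to be deleted in MCF10A. CDKN1A (p21) had 25 and 14410 counts (ratio 0.825, 0.534 to 1.22). CDKN1C (p57), which overlaps no gene, had 11 and 660 counts and was 7.93-fold higher by Nanopore (3.94 to 14.3). At 3.44 CPM by Illumina it passed the filter only through the Nanopore library, where it is high, so its call and its place as the highest of the list are a description. The lowest tested ratio was that of CDKN2C at 0.713 (0.326 to 1.35).

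Of 16 regulators of G1 kinase activity and turnover, 1 was higher by Nanopore, 4 higher by Illumina and the median was −0.24. The share of 25% higher by Illumina was near the 21.7% of all tested genes, and 17.7% of these were higher by Nanopore. The highest was AMBRA1, an adaptor for the degradation of D cyclins, at 58 and 5293 counts (5.21-fold higher by Nanopore, 3.95 to 6.75), and its body overlaps 4 genes. The lowest was CDC25A, the phosphatase that activates CDK2, at 3 and 10889 counts (ratio 0.131, 0.0270 to 0.383). SKP2, which marks p27 for removal, had 19 and 9434 counts (ratio 0.958, 0.576 to 1.50).

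Of 18 E2F target genes, 0 were higher by Nanopore, 12 were higher by Illumina and the median was −1.30, beside 17.7%, 21.7% and −0.42 for all tested genes. The 12 included all 6 MCM helicase genes, and the lowest was MCM3 at 30 and 56208 counts (3.94-fold higher by Illumina, ratio 0.254, 0.171 to 0.362). The highest was CDT1, the replication licensing factor, at 18 and 7421 counts (ratio 1.15, 0.683 to 1.82). On division of the Illumina values by length, 3 were higher by Illumina by union exonic length, 7 by mean transcript length and 3 by MANE Select length, where 9.62%, 12.03% and 7.63% of all tested genes were. Higher by Nanopore were 1, 1 and 0, where 28.5%, 21.6% and 30.3% of all tested genes were. The list medians were −0.59, −0.70 and −0.34, against all-gene medians of 0.40, 0.065 and 0.50, so the list stayed below all genes under each length.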

How the data were processed

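Gene counts from 1 Nanopore direct RNA and 1 Illumina library of MCF10a-Snail-ER cells were used; nothing says that they are replicates. The values deposited by the authors are raw whole-number counts per gene. Per the submitters' processing notes, minimap2 2.11-r797, HISAT2 2.1.0, featureCounts and hg38 were used, with no roles stated there. The abbreviated names of the deposited counts pair Nanopore with minimap2 and Illumina with HISAT2, and both with featureCounts. Annotation release, strand setting, treatment of overlapping or multiply mapped reads, and whether Illumina values are reads or fragments are not given in the sources used here. Per the file headers, the Nanopore column has a suffix, talcB7, that no label explains; correction of Nanopore reads with Illumina reads, which would make the libraries dependent, is not stated.

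Gene symbols, coordinates and lengths were taken from GENCODE release 44 (hg38); 58207 of 58735 identifiers matched. Counts were divided by library totals (CPM). Log2 ratios compare Nanopore with Illumina CPM after adding a pseudocount of 1 CPM to each, so changes of low genes are understated; ratios and folds with intervals carry no pseudocount. With no residual degrees of freedom no model of replicate spread was fitted. The two-sided exact conditional binomial test (scipy 1.17.1) compares these 2 libraries, not the platforms. In a simulation of 4-fold changes in genes of at least 20 CPM by Illumina it recovered 100 of 100 genes raised and 65 of 100 lowered. It made 1 false call, and called 0 of 11318 when nothing was changed. The simulated counts followed the Poisson model behind the test, so these numbers check the calculation only. They do not measure false calls in the 2 libraries, and CCNE1 and CCNE2 lie below that CPM limit. Intervals are 95% and exact, and cover counting error only, since amplified reads are not independent molecules. TMM factors came from edgeR 4.0.16. Coding sequences were aligned globally with Biopython 1.88.

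The members and gene lists were chosen with earlier results of these data known. All 10 members were named; in other lists, the highest and lowest ratio, genes at 0, with RB1, CDKN1A and SKP2 added for their role after their values were seen. Genes overlapping a member were also named.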

Additional observations from a re-analysis of the deposited data

How the results depend on the processing

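Of the 13 alternatives, other filters, pseudocounts, TMM, median-ratio scaling, leaving out mitochondrially encoded genes and thinning Illumina to the Nanopore total changed neither count of called members by over 1.5 times. The shares of all tested genes moved more. Without a filter 8.57% were higher by Illumina and 10.7% by Nanopore, beside 5 and 1 of the 10 members. At a mean of at least 20 CPM the shares were 28.1% and 15.5%, beside 4 and 1 of 8 members. Under thinning they were 15.7% and 12.5%, beside 4 and 1 of 10. Median-ratio scaling shifted ratios of all genes by 0.13 on the log2 scale. Division by length changed the counts. By union exonic length 3 members were higher by Illumina and 2 by Nanopore (all tested genes 9.62% and 28.5%), with a member median of −0.34 against an all-gene median of 0.40. By mean transcript length the numbers were 3 and 2 (12.03% and 21.6%). By MANE Select length they were 0 and 2 (7.63% and 30.3%), with a median of −0.27 against 0.50. A 4-fold call left 1 and 0 (all tested genes 7.31% and 12.9%). Among genes that overlap no other, only CCNE1 and E2F1 remained, with 1 and 0 called (all 2810 tested genes of that setting 25.3% and 5.84%). Spearman's correlation of the Nanopore with the Illumina order was 0.66 by mean transcript length, 0.52 undivided and 0.55 by MANE Select length, against 0.28.

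The ratio of CCND3 changed sign by union length (0.76) and MANE Select length (0.043), that of CCND2 by mean transcript (0.23) and MANE Select length (0.42), and that of CDK6 by union (0.13), mean transcript (0.017) and MANE Select length (0.79). These reversals appeared only in the settings that divide by length. Division also moved the all-gene median, from −0.42 undivided to 0.40 by union, 0.065 by mean transcript and 0.50 by MANE Select length. Above that median lay CCND3 by union, CCND2 by mean transcript and CDK6 by MANE Select length. The other reversed ratios lay below it. CCNE2 stayed above 0 in every setting that kept it, from 1.23 to 2.11, and so did CDKN1B, from 0.48 to 2.20. CDKN1B was called higher by Nanopore under all 3 lengths. The setting of genes that overlap no other kept only CCNE1 and E2F1, so these ranges do not cover it. CCND1 stayed below 0, from −2.21 to −0.77, and lost its call by MANE Select length (exact binomial adjusted p = 0.0637). E2F1 lost its call under thinning, mean transcript and MANE Select length (exact binomial adjusted p = 0.0939, 0.674 and 0.332), CDK2 by union and MANE Select length and CCND2 and CDK6 by all 3 lengths. CCNE1 gained one by union length (0.0455) and CDK4 by mean transcript length (−1.33, 1.25e-11). The 4-fold call ended those of CCND2, CCNE2, CDK2, CDK6 and E2F1. Nanopore depth limits CCNE1 and E2F1, with 2 and 3 counts. No paired analysis was possible because each platform has 1 library.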
